A study of Mus musculus with 8 samples.

Results

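Glycolysis and pyruvate entry were described through 34 genes of the 23343 gene symbols in the deposited tables, chosen by name for glucose transport, the steps from hexokinase to pyruvate kinase, lactate dehydrogenase and lactate transport, and the pyruvate dehydrogenase complex with its kinases. RNA was sequenced from 8 libraries of testis cells of C57BL/6 mice at postnatal day 7, with 2 libraries in each of 4 groups. Thy1+ spermatogonia were labelled PRC1ctrl (called Thy1 control here) or PRC1dKO (Thy1 dKO), and the same genotypes were given for cKit+ spermatogonia (cKit control, cKit dKO). PRC1 is Polycomb repressive complex 1, a chromatin regulator that modifies histone H2A and silences developmental genes. The labels give neither the deleted genes, nor the alleles that the controls carry, nor whether the 2 libraries of a group came from separate animals, so p-values measure the spread between these libraries, which may be technical.

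In glycolysis, glucose enters the cell through transporters, is trapped and rearranged by hexokinase, phosphoglucose isomerase and phosphofructokinase, is split by aldolase and is oxidised to pyruvate. Pyruvate is then either reduced to lactate by lactate dehydrogenase and carried out by monocarboxylate transporters, or passed to the citric acid cycle by the pyruvate dehydrogenase complex, which the pyruvate dehydrogenase kinases switch off by phosphorylation. In the testis, undifferentiated spermatogonia are known for active glycolysis, and Sertoli cells for supplying lactate to later germ cells.

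Library totals ran from 6763908 to 10976869 counts, and the 34 genes took 0.231% to 0.309% of a library. Levels below are CPM, counts scaled to the effective library size, with several transcript entries of a symbol summed. RNA of the PRC1 enzymes Ring1 and Rnf2 passed in neither dKO comparison (log2 differences of 0.39 ± 0.54 and 0.18 ± 0.13 (SE) in Thy1 and 0.73 ± 0.50 and 0.02 ± 0.12 in cKit), so dKO here means the libraries labelled so. All 20 germ cell markers had counts in every group, and their summed level was 2857 and 3144 CPM in the Thy1 control libraries, 2144 and 2427 CPM in the Thy1 dKO libraries, 1873 and 2349 CPM in the cKit control libraries, and 564 and 743 CPM in those of cKit dKO.

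Markers of somatic testis cells were abundant beside them. Thy1 and Kit are surface proteins, and in the testis Thy1 is also known from stromal cells and Kit from Leydig and mast cells. The 9 Leydig cell markers (steroidogenic genes) summed to 2559 and 3185 CPM in Thy1 control and to 3756 and 4199 CPM with the dKO label. In cKit libraries they summed to 11059 and 13289 CPM in control and to 15437 and 18048 CPM with the dKO label. The 13 peritubular and stromal markers summed to between 10382 and 13993 CPM in the 4 Thy1 libraries, 3127 and 3217 CPM in cKit control and 4985 and 6228 CPM in cKit dKO. The 14 Sertoli cell markers summed to 439 and 448 CPM in Thy1 control and to 563 and 612 CPM in Thy1 dKO. They reached 944 and 1006 CPM in cKit control and 1403 and 1431 CPM in cKit dKO. The 10 macrophage markers ranged from 979 to 1498 CPM in Thy1 and from 152 to 550 CPM in cKit libraries. The 7 mast cell markers summed to between 9.60 and 23.1 CPM in Thy1 libraries, 86.5 and 152 CPM in cKit control and 189 and 244 CPM in cKit dKO, with Tpsab1 at 0 in Thy1 control and Fcer1a at 0 in the other groups. In cKit dKO against control, 16 of 20 germ cell markers were lower (median log2 difference -1.68) and 6 of 9 Leydig, 8 of 13 peritubular and stromal, 5 of 13 tested Sertoli and 4 of 10 endothelial markers were higher. Of the Leydig markers 1 was lower, Cyp17a1 (log2 difference -0.72, adjusted p = 0.039, edgeR). In these bulk libraries fewer cells of a type and less RNA per cell cannot be told apart, and the part of the other cell types in the glycolysis results was not tested.

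**Figure D1:**
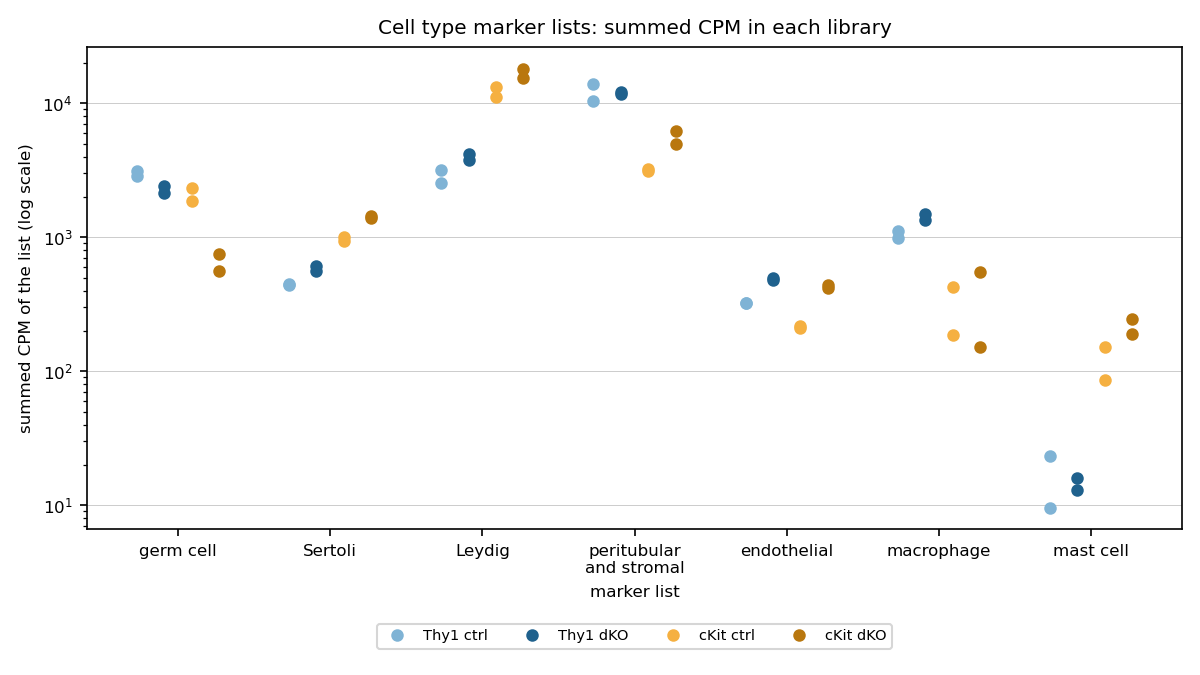
Summed level of 7 cell type marker lists in each of the 8 libraries, in CPM on a log axis. Germ cell markers were lowest in the 2 cKit dKO libraries (564 and 743 CPM), where Leydig cell markers were highest (15437 and 18048 CPM).

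Levels were compared between genes on the deposited RPKM scale, which divides by transcript length. Gapdh had the highest mean of the 34 genes, at 139 RPKM (98.4 to 196 over the 8 libraries), followed by Aldoa at 43.0, Ldha at 38.6, Ldhb at 21.5 and Pdhb at 19.9 RPKM. Among isozymes, Hk2 (mean 11.1 RPKM) lay above Hk1 (1.76) and Hk3 (0.19), and Pfkm (2.91) above Pfkl (1.13) and Pfkp (0.93). Gpi1 (17.5), Pkm (12.8), Slc16a1 (11.6) and Tpi1 (8.10) were in the upper range, while Pgk1 (2.61) was low. Many of these genes have processed copies elsewhere in the genome (Gapdh, Aldoa, Tpi1, Pgk1, Pgam1, Eno1, Ldha), and the way the counting shared such reads is not given in the sources used here, so their levels are uncertain. Eno1, the main enolase, was nearly empty, with between 0 and 45 counts in a library. Its reads stood mostly under Gm5506, an entry that overlaps it (chr4:150237324-150248873 within chr4:150237197-150248873, mm10), with 300 to 694 counts. The 2 entries together gave 44.9 to 72.0 CPM, and this sum did not pass the test in any comparison (log2 dKO difference of -0.17 ± 0.16 in Thy1 and -0.28 ± 0.16 in cKit).

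In Thy1 libraries the dKO changed 2 of the 34 genes. Slc2a3, a high-affinity glucose transporter (GLUT3), rose 1.94-fold, and Aldoc, the brain-type aldolase, fell 2.41-fold. All 34 genes were tested, and the edgeR quasi-likelihood test, with p-values adjusted by Benjamini-Hochberg, called 0.624% of the 14907 genes tested in this comparison (0.362% higher and 0.262% lower). At an unadjusted p under 0.05 there were 10 of the 34 (29.4%), against 13.8% of all genes. The median log2 difference was 0.11 over the 34 genes and 0.03 over all genes tested.

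Slc2a3 (chr6:122727809-122742745) was at 26.0 and 24.2 CPM in the Thy1 control libraries and at 49.4 and 47.8 CPM in Thy1 dKO (log2 difference 0.95 ± 0.17 (SE), adjusted p = 0.027, n = 2 libraries per group, edgeR). The Thy1 dKO libraries were the highest of the 8. Slc2a1, the widespread glucose transporter GLUT1, had 64.0 and 74.5 CPM in Thy1 control and 48.5 and 55.1 CPM in Thy1 dKO, without overlap but not past the test (log2 difference -0.42 ± 0.14, adjusted p = 0.19, edgeR). Aldoc (chr11:78324198-78326760) was at 28.4 and 30.4 CPM in Thy1 control and at 11.4 and 13.1 CPM in Thy1 dKO (log2 difference -1.27 ± 0.22, adjusted p = 0.020, edgeR). These were the lowest Aldoc levels of the 8 libraries. The calls of Slc2a3 and Aldoc rested on every Thy1 library, and both were lost without any of the 4 in turn. Their log2 differences were then 0.90 to 1.01 and -1.37 to -1.17. Those fits leave 1 library in a group, and they called fewer of all genes too. Slc2a3 also lost its call on the RPKM values (adjusted p = 0.17 and 0.14 with limma at pseudocounts of 0.1 and 1), and both genes when each symbol was represented by its largest entry (log2 differences of 0.96 and -1.27, adjusted p = 0.086 for each, edgeR). Both have 1 entry, so their own counts were the same in that fit. Among all 14858 genes, the fit with the largest entry called 5 higher and 4 lower in this comparison.

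In cKit libraries 11 of the 34 genes changed with the dKO, 8 higher and 3 lower. Hexokinases Hk1 and Hk2, the muscle phosphofructokinase Pfkm, triosephosphate isomerase Tpi1, the lactate dehydrogenase subunit Ldhb, the pyruvate dehydrogenase subunit Pdha1 and the kinases Pdk2 and Pdk4 rose by 1.45 to 1.94-fold. The isomerase Gpi1, the mutase Pgam1 and the kinase Pdk3 fell by 1.34 to 1.497-fold. The same test called 28.6% of all genes in this comparison (13.2% higher, 15.4% lower), against 32.4% of the 34 genes (23.5% higher, 8.82% lower), so the total share was near the background. The median log2 difference was 0.22 over the 34 genes and 0.03 over all genes. No gene of the 34 reached a 2-fold change with a call.

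The split differed between settings. In edgeR it was 6 higher and 3 lower with library totals and 10 higher and 2 lower with median-of-ratios size factors, and DESeq2 gave 8 higher and 2 lower. Of all 14907 genes, 1278 were higher and 3007 lower with library totals. They were 2281 and 2058 with median-of-ratios size factors, and 2121 and 1923 with DESeq2. On the deposited RPKM values with limma, the test, the unit and the pseudocount differ as well as the scaling. Of the 34 genes, 1 was then higher and 5 lower at a pseudocount of 0.1, and 2 were higher and 5 lower at a pseudocount of 1. Of all 14907 genes, 443 were higher and 4042 lower at a pseudocount of 0.1, and 459 and 3990 at a pseudocount of 1. There the median of all genes lay 0.32 and 0.19 lower on the log2 scale than with edgeR, and the median of the 34 was -0.10 and -0.07 against -0.29 and -0.16 for all genes. Without cKit control replicate 1, 4 were higher and 2 lower. Pfkm and Pdk3 kept their call in each setting run, including each left-out library.

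**Figure D2:**
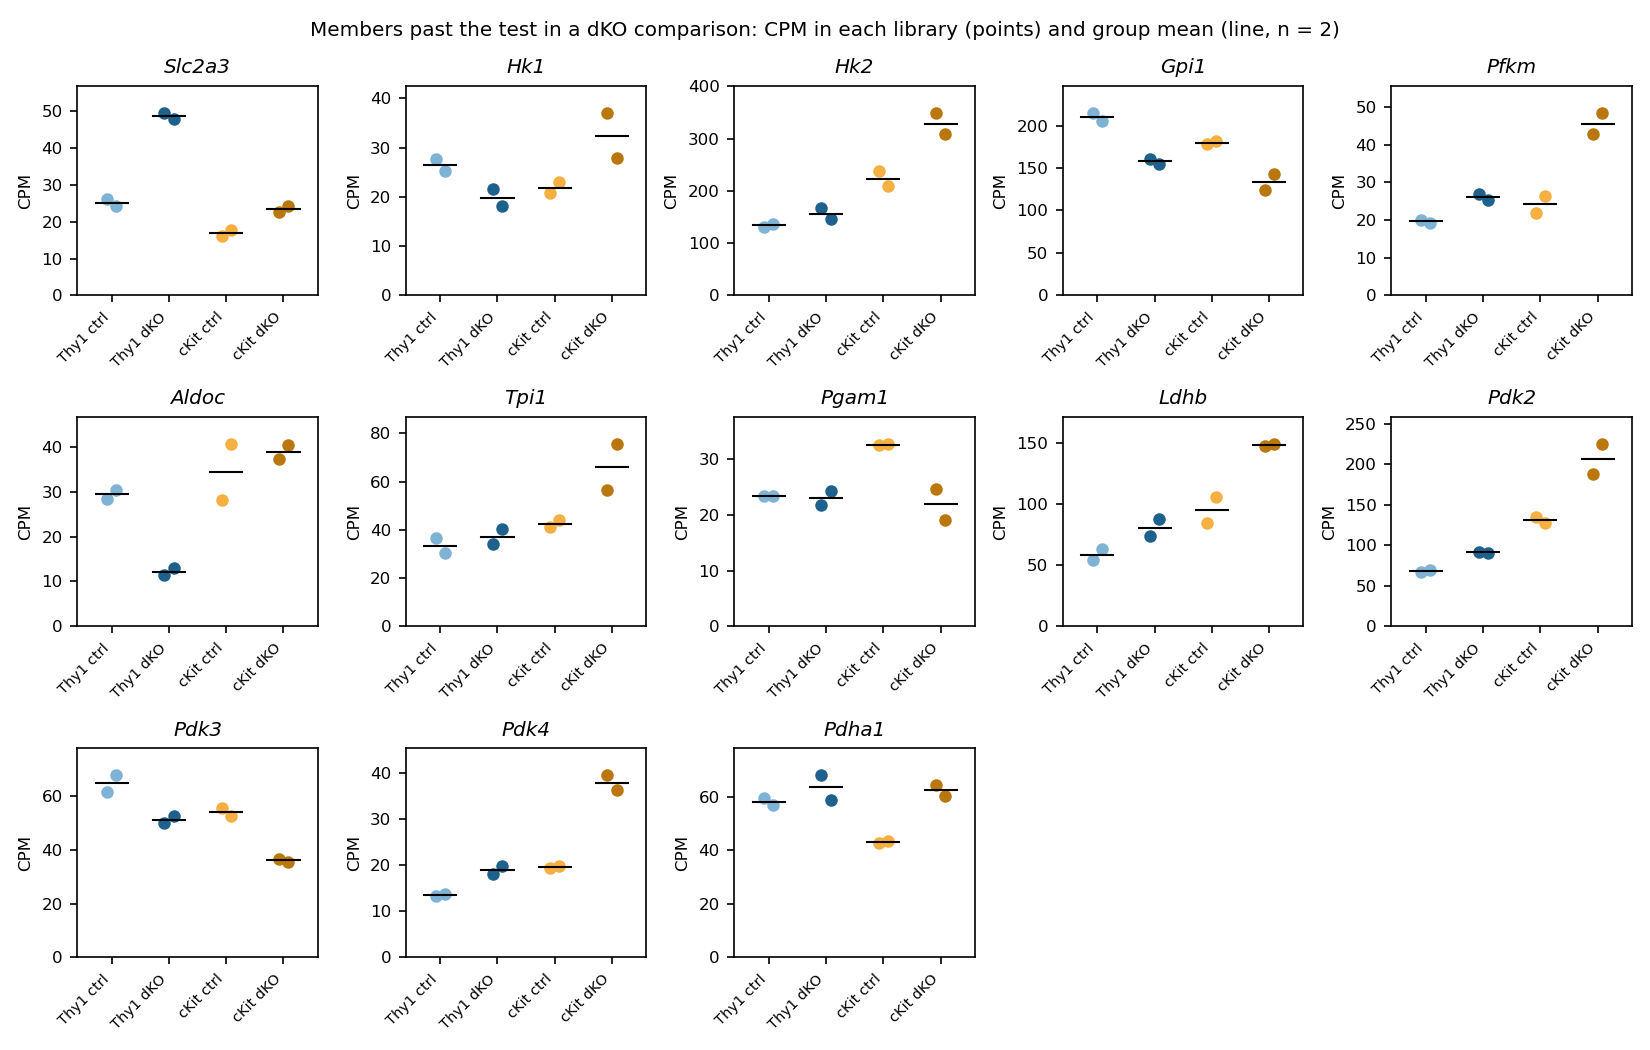
Level of the 13 genes that passed the test in a dKO comparison, 1 panel per gene, in CPM on an axis from 0. Points are the 8 libraries and lines the group means (n = 2). Slc2a3 is highest and Aldoc lowest in the 2 Thy1 dKO libraries, and the 2 cKit dKO libraries stand above the other 6 for Hk1, Hk2, Pfkm, Tpi1, Ldhb, Pdk2 and Pdk4.

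**Figure D3:**
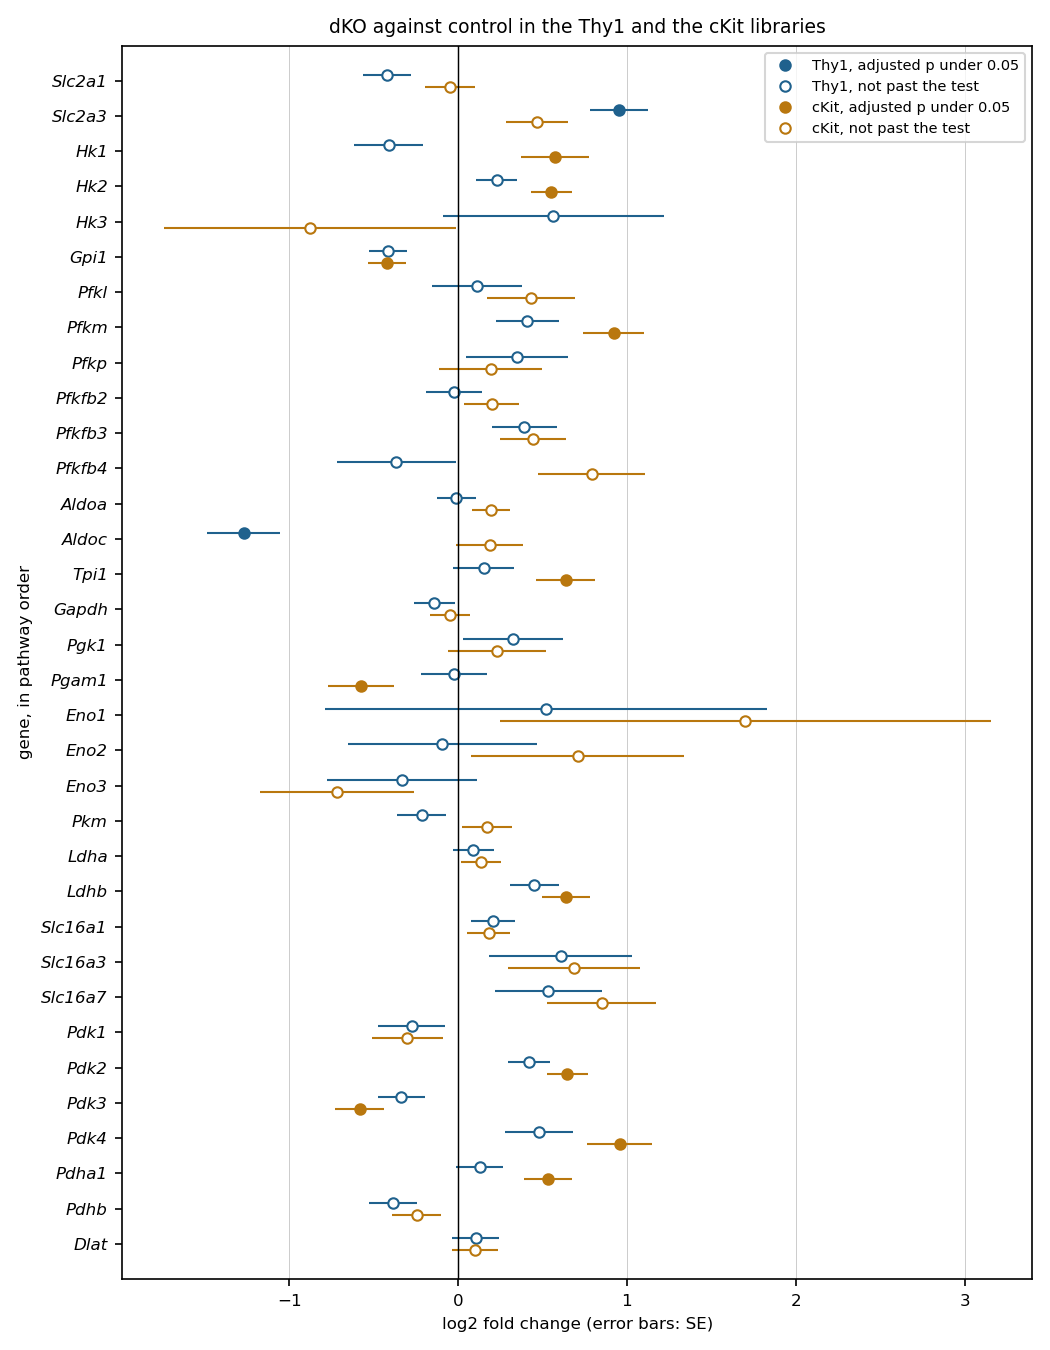
Log2 difference of dKO against control for each of the 34 genes in pathway order, in Thy1 and in cKit libraries, with SE bars (n = 2 libraries per group). Filled points passed the test. In cKit 11 points are filled, 8 to the right of 0 and 3 to the left, and in Thy1 those of Slc2a3 and Aldoc are.

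At the head of the pathway, neither glucose transporter passed in cKit with edgeR and TMM scaling. Slc2a1 was at 52.4 and 56.9 CPM in control and 54.4 and 51.1 CPM in dKO, which overlap (95% interval of the log2 difference -0.36 to 0.26). On the RPKM values Slc2a1 passed as lower (-0.39 and -0.34, adjusted p = 0.048 and 0.049 with limma). Slc2a3 had 16.2 and 17.9 CPM in control and 22.7 and 24.3 CPM in dKO (log2 difference 0.47, adjusted p = 0.069, edgeR). It was higher in both dKO libraries than in both controls, as in Thy1, and passed with median-of-ratios size factors (adjusted p = 0.046, edgeR).

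Hexokinases phosphorylate glucose. Hk2 (chr6:82725027-82774454), the inducible form, was at 237.6 and 209.8 CPM in cKit control and at 348.5 and 308.2 CPM in cKit dKO (log2 difference 0.55 ± 0.12, adjusted p = 0.0029, edgeR). In Thy1 it had 130.8 and 136.6 CPM in control and 167.5 and 145.8 CPM in dKO (log2 difference 0.23 ± 0.12, adjusted p = 0.42, edgeR). Hk2 thus had its 4 lowest values in Thy1 and its highest in cKit dKO. Hk1 (chr10:62268855-62379908), the constitutive form, was at 20.7 and 23.0 CPM in cKit control and 37.0 and 27.9 CPM in cKit dKO (log2 difference 0.57 ± 0.20, adjusted p = 0.046, edgeR). It had the opposite sign in Thy1, with 27.6 and 25.4 CPM in control and 21.5 and 18.2 CPM in dKO (log2 difference -0.41 ± 0.21, adjusted p = 0.39, edgeR). The Hk1 call was lost without each library other than cKit dKO replicate 2 (adjusted p = 0.060 to 0.21), and its difference between the dKO effects missed the threshold (0.98 ± 0.29, adjusted p = 0.058, edgeR). That difference passed with DESeq2 (1.04, adjusted p = 0.034), with median-of-ratios size factors (adjusted p = 0.046, edgeR), with no low-count filter (adjusted p = 0.031, edgeR) and without cKit dKO replicate 2 (1.24, adjusted p = 0.013, edgeR), and it had an adjusted p of 0.054 to 0.27 in the other settings. Hk3 stayed between 0.48 and 5.58 CPM in the 8 libraries.

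The next steps rearrange the sugar and, at phosphofructokinase, commit it to glycolysis. Gpi1 (chr7:34201327-34230305) was at 178.1 and 181.3 CPM in cKit control and 124.6 and 143.5 CPM in cKit dKO (log2 difference -0.42 ± 0.11, adjusted p = 0.012, edgeR). In Thy1 it had 214.5 and 205.7 CPM in control and 160.4 and 155.1 CPM in dKO (log2 difference -0.41 ± 0.11, adjusted p = 0.097, edgeR), a decrease of like size in the Thy1 pair that did not pass. Its call in cKit was lost without cKit control replicate 2 (adjusted p = 0.067) or cKit dKO replicate 1 (adjusted p = 0.14), and in Thy1 it passed with DESeq2 (adjusted p = 0.033), with no low-count filter (0.045, edgeR), with only the 4 Thy1 libraries (0.013, edgeR) and without either cKit dKO library (0.032, edgeR). Pfkm (chr15:98092589-98132447) was at 21.8 and 26.4 CPM in cKit control and 42.7 and 48.3 CPM in cKit dKO (1.89-fold, log2 difference 0.92 ± 0.18, adjusted p = 0.0016, edgeR). It had 20.1 and 19.1 CPM in Thy1 control and 26.8 and 25.3 CPM in Thy1 dKO (log2 difference 0.41, adjusted p = 0.35, edgeR), so that the 2 cKit dKO libraries stood above the other 6. The liver and platelet forms Pfkl and Pfkp ranged from 11.2 to 20.2 CPM and from 8.49 to 15.7 CPM and did not pass. The PFKFB enzymes, which make and remove the phosphofructokinase activator fructose 2,6-bisphosphate, did not pass either. Pfkfb3 (log2 difference 0.44 in cKit) passed there as higher when its largest entry stood for the gene (0.92, adjusted p = 0.017, edgeR). That fit drops reads from the cKit controls alone. The second Pfkfb3 entry held 49 and 56 counts in the cKit control libraries and 0 in each of the others. Pfkfb4 had 7.10 and 8.04 CPM in cKit control and 13.1 and 13.0 CPM in cKit dKO (log2 difference 0.79, adjusted p = 0.075, edgeR).

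From aldolase downwards few genes moved. Aldoa, the main aldolase, was at 214.5 and 256.1 CPM in cKit control and 262.9 and 275.3 CPM in cKit dKO (95% interval of the log2 difference -0.05 to 0.44), and it passed without cKit control replicate 2 (log2 difference 0.37, adjusted p = 0.045, edgeR). Tpi1 (chr6:124810592-124814296) was at 41.05 and 44.0 CPM in cKit control and 56.7 and 75.4 CPM in cKit dKO (log2 difference 0.64 ± 0.17, adjusted p = 0.013, edgeR), a call lost without cKit control replicate 1 or cKit dKO replicate 2 (adjusted p = 0.095 for each). Pgam1 (chr19:41911871-41918665) had 32.5 and 32.7 CPM in cKit control and 24.7 and 19.1 CPM in cKit dKO (log2 difference -0.57 ± 0.19, adjusted p = 0.039, edgeR). Its call held without cKit dKO replicate 1, while without each of the other 7 libraries the adjusted p was 0.055 to 0.23, and DESeq2 gave 0.082. Gapdh and Pkm, the dehydrogenase and the kinase that ends the pathway, overlapped between cKit control and dKO (95% intervals of the log2 difference -0.30 to 0.21 and -0.14 to 0.48). Pgk1, Eno2 and Eno3 did not pass, with ranges of 12.8 to 24.9, 0.89 to 3.83 and 2.56 to 8.10 CPM over the 8 libraries.

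Among the genes that interconvert and move lactate, Ldhb (chr6:142490249-142507943), the heart-type subunit, was at 84.7 and 106.2 CPM in cKit control and 147.8 and 149.2 CPM in cKit dKO (log2 difference 0.64 ± 0.14, adjusted p = 0.0036, edgeR). In Thy1 it had 54.7 and 63.0 CPM in control and 73.7 and 87.7 CPM in dKO (log2 difference 0.45, adjusted p = 0.17, edgeR). In each population both dKO libraries lay above both controls. The cKit call was lost without cKit control replicate 1 (adjusted p = 0.057). Ldha, the muscle-type subunit, had 210.6 and 222.0 CPM in cKit control and 216.1 and 258.8 CPM in cKit dKO, which overlap (95% interval of the log2 difference -0.12 to 0.39). The monocarboxylate transporters did not pass: Slc16a1 ranged from 120.1 to 228.0 CPM, Slc16a3 from 3.02 to 14.4 CPM and Slc16a7 from 5.10 to 11.6 CPM over the 8 libraries. Slc16a7 had 6.58 and 5.10 CPM in cKit control and 9.61 and 11.6 CPM in cKit dKO (log2 difference 0.85, adjusted p = 0.060, edgeR), and passed with median-of-ratios size factors or without cKit dKO replicate 1 (adjusted p = 0.048 for each, edgeR).

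At pyruvate entry, Pdha1 (chrX:160122219-160138336), the E1 alpha subunit that the kinases phosphorylate, was at 42.8 and 43.6 CPM in cKit control and 64.5 and 60.4 CPM in cKit dKO (log2 difference 0.53 ± 0.14, adjusted p = 0.011, edgeR). The cKit dKO level lay within the range of the Thy1 libraries, which was 56.9 to 68.0 CPM. Its call was lost without cKit control replicate 1 (adjusted p = 0.065). Pdhb, the E1 beta subunit, was at 131.4 and 99.0 CPM in cKit control and 103.4 and 91.3 CPM in cKit dKO (log2 difference -0.25, adjusted p = 0.21, edgeR), and at 108.4 and 105.4 CPM in Thy1 control and 85.03 and 78.7 CPM in Thy1 dKO (log2 difference -0.38, adjusted p = 0.23, and 0.034 with only the 4 Thy1 libraries, edgeR). On the RPKM values Pdhb passed as lower in cKit dKO (log2 difference -0.57 and -0.55, adjusted p = 0.020 and 0.021 with limma). Dlat, the E2 subunit, ranged from 70.5 to 99.4 CPM and did not pass.

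The 4 pyruvate dehydrogenase kinases did not move as a block in cKit: 2 rose, 1 fell and 1 did not pass. Pdk2 (chr11:95026258-95041371), the widespread form, was at 135.4 and 127.9 CPM in cKit control and 187.6 and 224.4 CPM in cKit dKO (log2 difference 0.65 ± 0.12, adjusted p = 0.0011, edgeR). Pdk4 (chr6:5483351-5496278), the form known to rise on fasting and fatty acid use, was at 19.3 and 19.8 CPM in cKit control and 39.5 and 36.4 CPM in cKit dKO (log2 difference 0.96 ± 0.19, adjusted p = 0.0018, edgeR). Pdk3 (chrX:93764616-93832095) went the other way, from 55.3 and 52.6 CPM in cKit control to 36.7 and 35.4 CPM in cKit dKO (log2 difference -0.58 ± 0.14, adjusted p = 0.0073, edgeR). The groups did not overlap for these 3, as for 21 of the 34 and 60.7% of all genes tested in this comparison.

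In Thy1 the same kinases had the same signs without passing. Like signs were common in the set. The sign was the same in both populations for 26 of the 34 genes and for 10 of the 11 called in cKit. This share was not counted over all genes. Pdk2 had 66.7 and 69.6 CPM in Thy1 control and 92.0 and 90.4 CPM in Thy1 dKO (log2 difference 0.42, adjusted p = 0.13, edgeR), and passed with only the 4 Thy1 libraries (adjusted p = 0.041, edgeR). Pdk4 had 13.3 and 13.7 CPM in Thy1 control and 18.02 and 19.7 CPM in Thy1 dKO (log2 difference 0.48, adjusted p = 0.29, edgeR), and Pdk3 had 61.5 and 67.6 CPM in Thy1 control and 49.8 and 52.5 CPM in Thy1 dKO (log2 difference -0.34, adjusted p = 0.29, edgeR). The groups did not overlap for these 3 here either, as for 22 of the 34 and 51.3% of all genes. Pdk1, the hypoxia-responsive form, had 31.6 and 33.0 CPM in Thy1 control and 26.2 and 27.1 CPM in Thy1 dKO. In cKit it had 18.4 and 25.6 CPM in control and 18.1 and 17.4 CPM in dKO, and it passed in neither population. On the RPKM values, where the median of all genes lay lower in cKit dKO, Hk1, Hk2, Tpi1, Ldhb, Pdk2 and Pdha1 no longer passed in cKit (adjusted p of 0.099 to 0.54 with limma), and Pdk4 passed at a pseudocount of 1 but not of 0.1 (adjusted p = 0.053).

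Make-up within a family does not depend on library scaling. Of the summed RPKM of the 4 kinases, Pdk3 took 44.5% ± 0.90 (SD, n = 2) in Thy1 control and 33.4% ± 0.87 in Thy1 dKO, and among cKit libraries 28.4% ± 0.37 in control and 14.7% ± 1.57 in dKO. Pdk2 took 41.5% ± 0.65, 52.7% ± 1.31, 61.2% ± 1.04 and 73.6% ± 3.16 in the same order. The 2 kinases thus had near-equal shares in Thy1 control, and Pdk2 was in large excess in cKit dKO. Slc2a3 took 37.9% ± 2.69 of the 2 glucose transporters in Thy1 dKO and 16.8% to 22.5% on average in the other groups. Aldoc took 5.58% ± 0.63 of the 2 aldolases in Thy1 dKO and 11.04% to 12.4% on average in the other groups. Ldhb made up 25.3% ± 1.20 of the lactate dehydrogenases in Thy1 control and 46.4% ± 3.75 in cKit dKO, but this share depends on how reads were assigned to the 2 Ldha entries. With the largest entry alone it was 49.1% and 36.1% for control and dKO in Thy1, and 56.2% and 52.8% in cKit. The shares are given without a test.

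**Figure D4:**
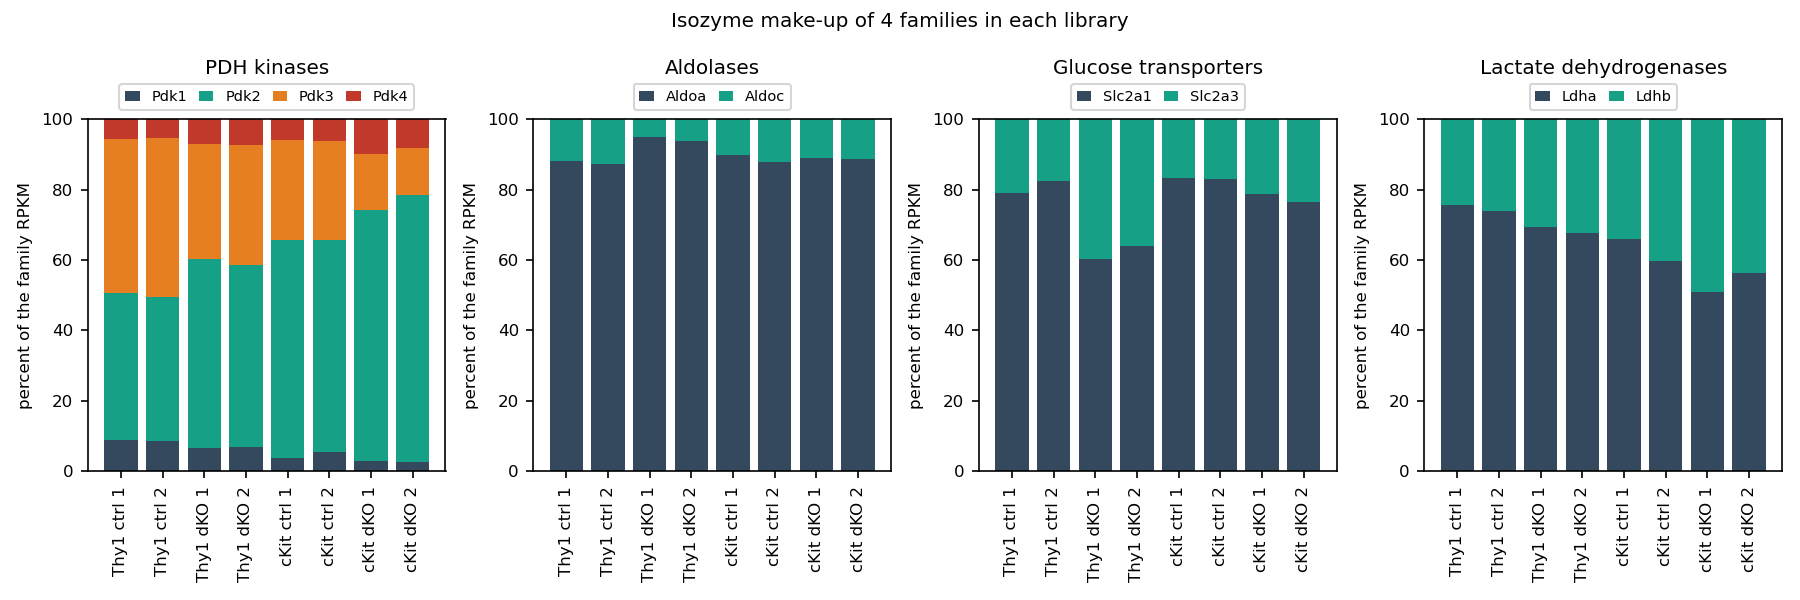
Share of the summed RPKM of 4 isozyme families taken by each isozyme in each of the 8 libraries, in percent. Pdk3 takes 44.5% on average in Thy1 control and 14.7% in cKit dKO, and Slc2a3 is largest and Aldoc smallest in the 2 Thy1 dKO libraries.

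The dKO effect differed between the populations for 1 of the 34 genes, Aldoc (log2 difference of effects 1.46 ± 0.29, 95% interval 0.83 to 2.08, adjusted p = 0.0094, edgeR). The test called 5.92% of all genes (1.86% higher and 4.06% lower), and at an unadjusted p under 0.05 there were 3 of the 34 (8.82%) against 20.7% of all genes. A second gene passed in some settings: Hk1 as given above, and Pgam1 on the RPKM values (-0.86 and -0.72, adjusted p = 0.048 and 0.0497 with limma, against -0.55 and 0.28 with edgeR). In cKit, Aldoc was at 28.1 and 40.6 CPM in control and 37.3 and 40.5 CPM in dKO, which overlap (log2 difference 0.19, adjusted p = 0.53, edgeR), against the decrease in Thy1 given above. Without Thy1 dKO replicate 1 this difference was 1.36 and no longer passed (adjusted p = 0.072, 0 genes), and without cKit dKO replicate 2 there were 2 calls, Aldoc and Hk1. For Slc2a3, called in Thy1 and not in cKit, the difference of effects was -0.48 ± 0.25 and did not pass (adjusted p = 0.30, edgeR). The 10 genes called in cKit and not in Thy1 apart from Hk1 had differences of effects of -0.55 to 0.51 with adjusted p of 0.27 to 0.98. None of these effects was thus shown to be limited to a population.

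cKit and Thy1 control libraries differed in 8 of the 34 genes, 6 higher and 2 lower in cKit, in a comparison that called 19.7% of all genes (9.46% higher and 10.3% lower). The median log2 difference was 0.16 over the 34 and 0.01 over all genes. Without cKit control replicate 1 the medians were 0.33 and -0.02, and without cKit control replicate 2 they were -0.03 and -0.01. Hk2 (0.74 ± 0.12, adjusted p = 0.00036), Pdk2 (0.95 ± 0.12, adjusted p = 4.9e-05) and Gapdh (0.57 ± 0.12, adjusted p = 0.0033) were higher in cKit with edgeR and kept their calls without each library. Gapdh had 490.9 and 470.1 CPM in Thy1 control and 682.6 and 744.4 CPM in cKit control. Aldoa (0.39 ± 0.11), Ldhb (0.69 ± 0.14) and Slc16a1, the lactate transporter MCT1 (0.55 ± 0.13), were also higher in cKit, and Slc2a3 (-0.56 ± 0.18) and Pdha1 (-0.43 ± 0.14) lower.

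Those 5 calls were each lost without some libraries. Without Thy1 control replicate 1 the 5 were lost and 3 genes remained (adjusted p = 0.052 to 0.20). Without Thy1 control replicate 2, Thy1 dKO replicate 1 or Thy1 dKO replicate 2, 5 genes passed and Aldoa, Slc2a3 and Pdha1 were lost (adjusted p = 0.051 to 0.13). Without cKit control replicate 1, 5 genes passed and Slc16a1 (adjusted p = 0.082), Slc2a3 (0.17) and Pdha1 (0.14) were lost, and without cKit control replicate 2 Aldoa (0.23), Slc2a3 (0.077) and Pdha1 (0.11) were lost. On the RPKM values 9 and 10 genes of the set were higher and 0 lower at pseudocounts of 0.1 and 1. Among all genes 2418 were then higher and 910 lower at 0.1, and 2504 and 927 at 1. With edgeR and TMM scaling these were 1410 and 1529. The median log2 difference of all genes was 0.23 and 0.14 on RPKM, against 0.01 with edgeR. That of the set was 0.39 and 0.28, against 0.16. DESeq2 gave 6 genes of the set higher and 0 lower, and 1342 higher and 1480 lower among all genes. In this comparison 8 of 9 Leydig markers were higher in cKit (median log2 difference 1.93) and 13 of 13 peritubular and stromal markers lower (median -2.83), and 9 of 20 germ cell markers were lower.

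Between cKit and Thy1 dKO libraries 17 of the 34 genes differed, 13 higher and 4 lower in cKit. The comparison called 34.8% of all genes (14.8% higher and 20% lower), and the medians were 0.20 over the 34 and -0.08 over all genes. Without Thy1 dKO replicate 2 it gave 11 calls. Of the 8 genes called between the control libraries 7 were called here too, each with the same sign, and Pdha1 was the exception. How often calls recurred in this way among all genes was not counted. Both comparisons of dKO with control share their libraries with these comparisons of populations, so the values stand side by side only. Called with the largest changes were Pfkfb4 (1.87 ± 0.34, 3.65-fold, adjusted p = 0.00061) and Aldoc (1.67 ± 0.22, 3.19-fold, adjusted p = 3.3e-05) among the higher genes with edgeR. Pfkfb4 had 3.72 and 3.40 CPM in Thy1 dKO. Hk3 (-2.73 ± 0.80) and Slc2a3 (-1.05 ± 0.18) were the lower ones with the largest changes, and Hk3 lost its call without Thy1 dKO replicate 2 or either cKit dKO library (adjusted p = 0.051 to 0.23).

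Hk2, Pdk2, Pdk4, Aldoa, Gapdh, Ldhb, Tpi1 and Pfkm were higher in cKit dKO than in Thy1 dKO without each library as well, at log2 differences of 0.60 to 1.18. The call of Pfkm was lost when its largest entry stood for the gene (0.24, adjusted p = 0.77, edgeR), with reads that moved between its 3 entries from library to library. Hk1, Pfkfb2 and Slc16a1 were higher, and Pdk1 and Pdk3 lower, with calls that were lost without at least 1 dKO library. Without Thy1 dKO replicate 2 these were 0.59 (adjusted p = 0.14) for Hk1, 0.48 (adjusted p = 0.13) for Pfkfb2, 0.48 (adjusted p = 0.066) for Slc16a1, -0.56 (adjusted p = 0.16) for Pdk1 and -0.47 (adjusted p = 0.10) for Pdk3. Without Thy1 dKO replicate 1 or either cKit dKO replicate, Pdk1 had adjusted p of 0.12 to 0.16 and Pdk3 of 0.063 to 0.088. Without cKit dKO replicate 1, Hk1 also missed the threshold (adjusted p = 0.070), and Pdk1 further missed it without either Thy1 control replicate or cKit control replicate 2 (adjusted p = 0.055 to 0.061). All 9 Leydig markers were higher and 16 of 20 germ cell markers lower in cKit dKO than in Thy1 dKO.

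**Figure D5:**
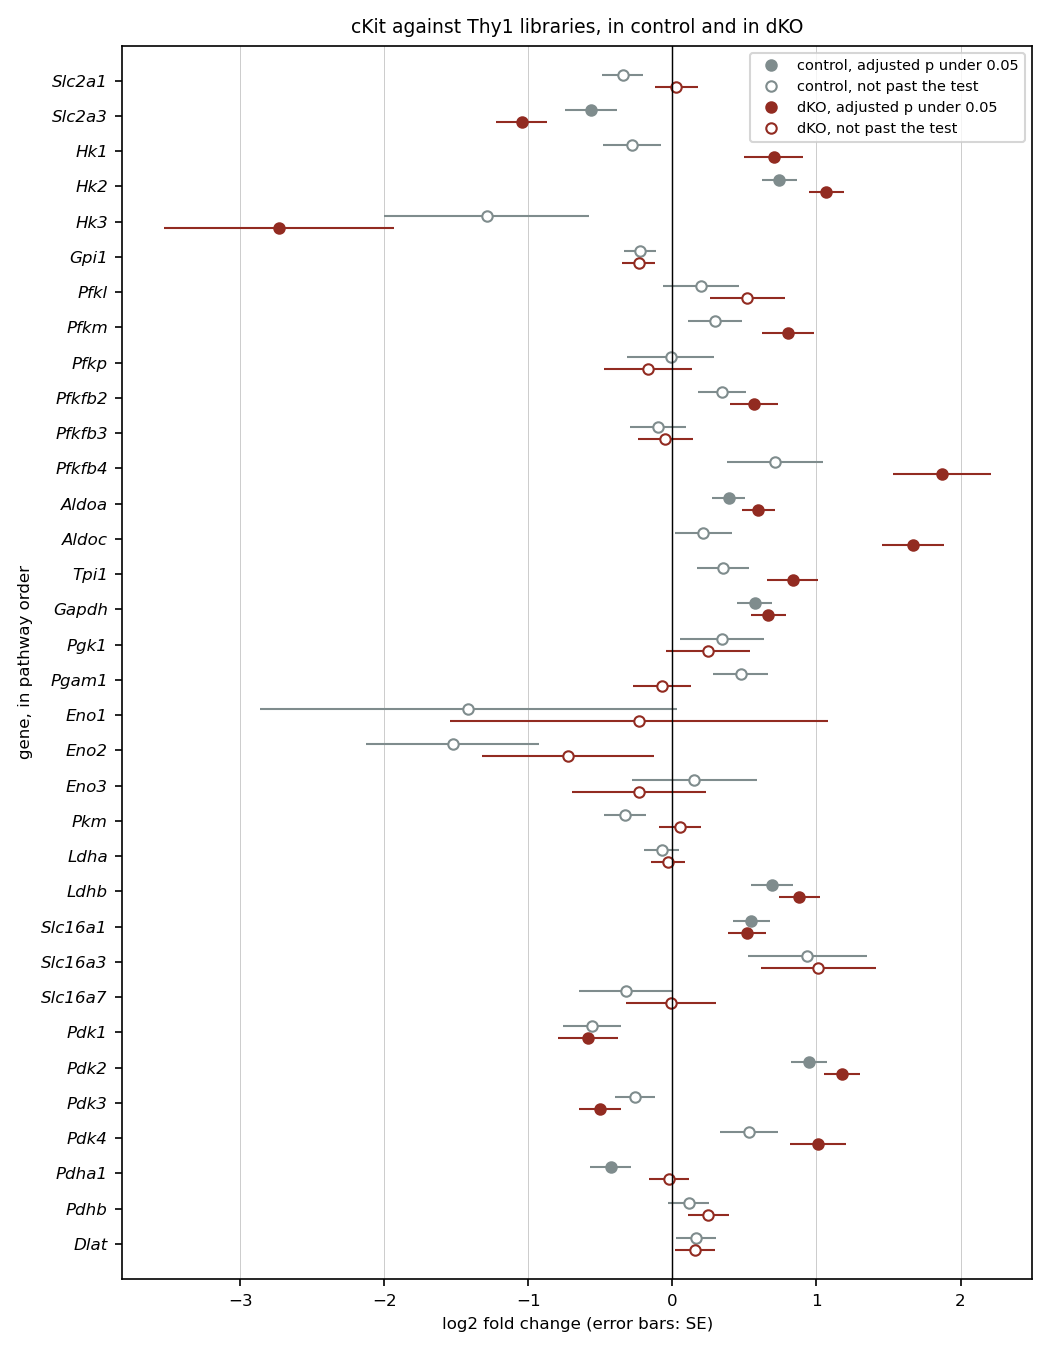
Log2 difference of cKit against Thy1 libraries for each of the 34 genes, in control and in dKO, with SE bars (n = 2 libraries per group). Filled points passed the test: 8 in control and 17 in dKO, with Hk2 and Pdk2 higher and Slc2a3 lower in cKit in both.

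Genes around the pathway were counted from further lists. In Thy1 dKO 1 of them passed, where the test called 0.624% of all genes. It was among 22 citric acid cycle and malic enzyme genes, and none passed of the 12, 13, 26, 6, 21 and 17 tested in the other lists. This was Me2, the mitochondrial malic enzyme that makes pyruvate from malate. Me2 fell from 145.0 ± 3.29 (SD, n = 2) to 95.2 ± 11.2 CPM in Thy1 dKO (log2 difference -0.61 ± 0.12, adjusted p = 0.035, edgeR). In cKit dKO it fell further, from 130.9 ± 2.57 to 50.7 ± 0.16 CPM (log2 difference -1.37 ± 0.13), and the effects differed (-0.76 ± 0.18, adjusted p = 0.019, edgeR). The test of that difference called 1.86% of all genes higher and 4.06% lower. It also called 1 of 26 side branch genes and 3 of 21 regulators lower, and of 17 hypoxia response genes 1 higher and 1 lower. In cKit dKO the test called 28.6% of all genes (13.2% higher and 15.4% lower). Of 22 citric acid cycle and malic enzyme genes 3 rose and 2 fell there. Aco1 (0.48), Sdhc (0.48) and Me1 (0.35) rose, and Mdh2 (-0.31) fell with Me2. Between control populations 11 of these 22 were higher in cKit and 0 lower (median log2 difference 0.42), against 9.46% of all genes higher and 10.3% lower, led by the cytosolic malic enzyme Me1 (1.53 ± 0.11, from 165.2 to 476.3 CPM).

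Of 12 partners of pyruvate entry (carriers, phosphatases, carboxylase and other subunits), 1 rose and 2 fell in cKit dKO. Of all genes 13.2% were called higher and 15.4% lower there. Bsg, the chaperone of MCT1, rose (0.38 ± 0.12), while Pdp2, a phosphatase that switches pyruvate dehydrogenase back on, fell (-0.51 ± 0.17), as did Pdha2, the testis paralog of Pdha1 (-1.48 ± 0.35, from 10.8 to 3.87 CPM). Among 26 genes of the pentose phosphate pathway and other side branches 4 rose and 4 fell, against the same shares of all genes. They include Taldo1 (transaldolase, -0.77), Shmt1 and Psat1 of serine and glycine metabolism (-1.20 and -0.64), Pygl (glycogen phosphorylase, 0.67) and Gpd2 (0.74). Of 13 tested other glycolytic isozymes and testis forms, and of 6 tested genes of gluconeogenesis, none passed in cKit dKO with edgeR.

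Among 21 regulators of these genes 5 rose and 3 fell in cKit dKO, against 13.2% of all genes higher and 15.4% lower. Myc rose from 153.5 ± 23.3 to 272.6 ± 50.9 CPM (0.83 ± 0.15), and Mycn fell from 21.9 ± 0.64 to 9.53 ± 3.05 CPM (-1.20 ± 0.24). Mlxip, a glucose-sensing partner of Mlx, fell (-0.91 ± 0.13), and Txnip, which holds back glucose uptake, rose (0.80 ± 0.15), as did Epas1 (HIF-2 alpha, 0.83 ± 0.17) and Ppargc1a (1.18 ± 0.35). Of 17 hypoxia response genes outside glycolysis 3 rose and 2 fell, against the same shares of all genes. Ddit4 went from 10.1 ± 1.06 to 38.8 ± 5.71 CPM (1.95 ± 0.24), and Ero1l was at -0.71 ± 0.15. These lists hold genes that germ cells and the somatic cells named above also express, and the part of cell composition in them was not tested.

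The starts of the 3 kinase genes with a call in cKit are shown because these kinases changed in different directions. The start of Aldoc is shown because its dKO effect differed between the populations. The sequences are the 250 bases before a start of the gene, 5′ to 3′ on the strand of the gene, from RefSeq (GRCm38.p6, the assembly that mm10 names). For Pdk3 that start lies 55 bases from the start of the span given above. Capitals mark ACGTG or GCGTG on either strand, the core of the hypoxia response element. The spans are chr11:95041372-95041621 (minus strand) for Pdk2, chrX:93832151-93832400 (minus strand) for Pdk3, chr6:5496279-5496528 (minus strand) for Pdk4 and chr11:78323948-78324197 (plus strand) for Aldoc.
Pdk2: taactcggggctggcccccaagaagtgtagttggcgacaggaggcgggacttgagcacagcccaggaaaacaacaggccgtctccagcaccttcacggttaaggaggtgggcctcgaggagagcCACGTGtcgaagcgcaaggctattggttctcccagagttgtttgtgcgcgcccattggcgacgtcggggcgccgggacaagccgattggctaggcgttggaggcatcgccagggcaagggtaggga
Pdk3: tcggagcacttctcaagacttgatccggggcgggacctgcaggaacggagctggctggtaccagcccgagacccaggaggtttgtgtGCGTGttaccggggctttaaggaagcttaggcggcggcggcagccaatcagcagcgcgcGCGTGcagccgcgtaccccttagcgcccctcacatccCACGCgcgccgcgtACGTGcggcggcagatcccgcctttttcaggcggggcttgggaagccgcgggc
Pdk4: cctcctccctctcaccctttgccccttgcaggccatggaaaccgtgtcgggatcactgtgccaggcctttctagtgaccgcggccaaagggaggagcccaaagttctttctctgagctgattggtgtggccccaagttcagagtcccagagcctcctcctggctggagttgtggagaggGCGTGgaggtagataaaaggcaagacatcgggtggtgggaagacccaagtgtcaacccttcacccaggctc
Aldoc: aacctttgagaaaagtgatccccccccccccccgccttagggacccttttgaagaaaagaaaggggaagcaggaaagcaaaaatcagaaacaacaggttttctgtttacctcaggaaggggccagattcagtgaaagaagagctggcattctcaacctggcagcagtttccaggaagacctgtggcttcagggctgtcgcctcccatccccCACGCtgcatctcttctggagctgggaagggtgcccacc

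Pdk3 holds 4 such matches in this window, Pdk4 and Aldoc 1 each, and in Pdk2 a match on each strand forms the palindrome CACGTG, an E-box of the kind that Myc and its partners bind. A match is a description of the letters and not a bound site. Promoter windows of 300 bases, from 250 before to 50 after the start, were found for 32 of the 34 genes (all but Slc2a3 and Slc16a7). For each gene 1 window was used, also where several were listed, such as 4 for Pfkm, 3 for Aldoa and 2 each for Pdk2 and Aldoc. The other windows of these genes are not described here. ACGTG or GCGTG was present in 26 of the 32 (81.2%) and in 43.8% of all 32851 windows, CACGTG in 4 (12.5%) against 7.15%, the GC box GGGCGG in 19 (59.4%) against 35.7%, and TATAAA in 2 (6.25%) against 13.6%, each on either strand. Base composition differs between these sets, with a median of 20 CpG in the windows of the 32 genes and 7 in all windows. Aldoa and Aldoc had 0 and 3 CpG in the window, and the kinases Pdk1, Pdk2, Pdk3 and Pdk4 had 25, 25, 35 and 12.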

How the data were processed

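Per the labels' protocols, total RNA (RNeasy micro) was amplified with the NuGEN Ovation system and sequenced as Nextera XT libraries. Per the submitters' processing notes, STAR 2.4.2a and mm10 were used. How reads were counted (tool, strand, multiply aligned reads) is not given in the sources used here, so reads of genes that overlap cannot be told apart. Each deposited table holds, per RefSeq transcript entry (26099 entries, 23343 symbols), a raw read count and an RPKM value that the authors computed per kilobase and library size, per the file headers.

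Counts were summed per symbol. In R 4.3.3, edgeR 4.0.16 (filterByExpr by group, 14907 genes kept, TMM scaling, glmQLFit and glmQLFTest, two-sided) was fitted on all 8 libraries with 1 mean per group, and p-values were Benjamini-Hochberg adjusted over all genes with a threshold of 0.05. CPM use TMM-scaled library sizes, and intervals are at 95%. Standard errors are the log2 difference over the root of the F statistic. The fit was tested on simulated data, for cKit dKO against control only. All genes there had a common dispersion (spread between libraries beyond counting) of 0.022, and known folds were set in cKit dKO. That simulation does not cover a spread that differs between genes, nor the other comparisons. The other settings were DESeq2 1.42.0, library totals, median-of-ratios size factors, no low-count filter, the largest entry per symbol, limma 3.58.1 on log2(RPKM + 0.1) and log2(RPKM + 1), the replicate number as a block, only the 4 libraries compared, and each library left out. Adding the Gm5506 entry to Eno1 was chosen after seeing the data.

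The 34 genes, the lists and the tests were chosen with earlier results of these data known. All 34 genes are named. Values per library are given for genes with an adjusted p under 0.05 in a dKO comparison or in the difference of dKO effects and a mean level of at least 3 in log2 CPM, and for described isozymes; values of further genes not past the test were chosen after they were seen. From each further list at most 6 called genes with the largest change are named. Libraries carry no molecular identifiers, and their totals of 6763908 to 10976869 counts limit precision for genes of a few CPM.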

Additional observations from a re-analysis of the deposited data

Results flagged for a closer look

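The dKO effect on Aldoc differed between the populations by 1.46 ± 0.29 on the log2 scale (cKit minus Thy1, SE, adjusted p = 0.0094, edgeR), with lower levels in both Thy1 dKO libraries than in both Thy1 controls and overlapping levels in cKit. Without Thy1 dKO replicate 1 the difference was 1.36 (adjusted p = 0.072). The part of cell composition in it was not tested.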

How the results depend on the processing

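Of 39 calls of single genes over the 5 comparisons, 0 changed sign in any setting, and the number that kept their call was 35 with DESeq2, 37 with library totals, 37 with median-of-ratios size factors, 37 with no low-count filter, 30 with the largest entry, 26 and 27 on RPKM at pseudocounts of 0.1 and 1, and 26 to 34 with a library left out. The count in Thy1 dKO (2) became 0 with the largest entry, 1 on RPKM at each pseudocount and 5 with only the 4 libraries compared, and lay between 0 and 3 with a library left out. In cKit dKO (11) it was 6 and 7 on RPKM and 6 to 10 with a library left out. Between control populations (8) the left-out range was 3 to 9 and between dKO populations (17) it was 11 to 17. For the difference of dKO effects (1) it was 0 to 2, and 2 with DESeq2, median-of-ratios size factors, no filter or RPKM at each pseudocount. Calls among all genes changed as well. In Thy1 dKO 54 were higher and 39 lower in the main fit, and 5 and 4 with the largest entry. On RPKM they were 2 and 4 at a pseudocount of 0.1, and 10 and 14 at 1. With only the 4 libraries compared, 432 of 14374 genes were higher and 438 lower. The cause of these changes was not tested. With the largest entry, which leaves out the reads of the smaller Aldoa entries, the Aldoc share in cKit dKO was 11.3%. The Ldhb shares were then 49.1% and 36.1% (Thy1 control and dKO) and 56.2% and 52.8% (cKit control and dKO). The reads of Ldha moved between its 2 entries from library to library. Among all genes in cKit dKO, 1965 were higher and 2294 lower with TMM, against 1278 and 3007 with library totals.

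With the replicate number as a block the counts were 2, 10, 8, 18 and 1 in the order of the comparisons above, and the call of Hk1 in cKit dKO was lost (adjusted p = 0.051, edgeR). Deviations of same-numbered libraries correlated at -0.05 to 0.05, so the numbers were not taken to pair the samples.

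Signs turned for differences that had not passed. In cKit, Slc2a1 was at 0.00041 with DESeq2 and 0.00042 with median-of-ratios size factors, and Gapdh at 0.0036 with each. On RPKM at pseudocounts of 0.1 and 1, Aldoc was at -0.14 and -0.12, Aldoa at -0.14 and -0.14, Ldha at -0.25 and -0.24 and Pkm at -0.16 and -0.15, and Ldha was at -0.0023 with library totals. With a library left out the log2 difference ran in cKit from -0.11 to 0.056 for Slc2a1, -0.062 to 0.52 for Aldoc, -0.22 to 0.18 for Gapdh and -0.027 to 0.43 for Pkm, and in Thy1 from -0.11 to 0.052 for Pgam1. At this depth, differences of genes of a few CPM (Eno1, Hk3, Eno2, Eno3, Slc16a3, Slc16a7, Pfkfb4) have the largest SE of the 34 in the dKO comparisons.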
